A study of Mus musculus with 13 samples.

Results

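Adult mouse islets were set against islet progenitors at day 4 of differentiation, on 4 of the 13 bead arrays of the series: 2 arrays labelled adult islets and 2 labelled islet progenitors at day 4. The arrays were taken by their titles, and every gene on the array entered, each through its brightest probe. All 4 samples were total RNA from pancreas of the strain C57BL/6. The adult islets served the study as a positive control, and the day 4 cells came from purified islet progenitors; the other arrays were progenitors at day 1 (n = 3) and day 0 (n = 4) and embryonic stem cells (n = 2). The labels give neither the age or sex of the mice, nor how islets were isolated, how progenitors were purified or in what they were cultured. They also do not say that replicates came from separate animals or cultures, so p-values measure the spread between replicate arrays, which may be technical. That spread was pooled over all 13 arrays, so it rests largely on the groups outside this comparison.

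Pancreatic endocrine cells arise in the embryo from progenitors that briefly express the transcription factor Neurog3, and they then leave the cell cycle and begin to make hormones. Newly formed beta cells hold insulin before they secrete it well in response to glucose; sensing of glucose, calcium-triggered exocytosis and marker genes such as Ucn3 are acquired after birth. A mature islet is a small organ with a dense fenestrated capillary bed, resident macrophages and nerve endings, and islets taken out of the pancreas can carry acinar and duct cells with them. A comparison of whole islets with purified progenitors therefore measures endocrine genes and the genes of these other cells together. In such bulk RNA, fewer cells of a type and less RNA per cell cannot be told apart.

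The values are log2 intensities, so a difference of 1 is 2-fold, and each difference is adult islets minus day 4 progenitors, with its standard error (SE) from limma. A probe counted as above background over 7.24 log2 units, a level set from the dim side of the distribution, which 44.1 to 46.4% of probes exceeded, depending on the array. Over the genes tested, the day 4 arrays correlated at r = 0.9949 and the adult arrays at 0.989, while arrays of different groups correlated at 0.906 to 0.912. Of 10382 genes tested, 1501 (14.5%) passed an adjusted p of 0.05. Of these, 782 (7.53%) were higher and 719 (6.93%) were lower in adult islets (918 and 524 under cyclic loess normalization). With any 1 of the 4 arrays left out, 675 to 859 genes passed, 406 to 536 of them higher and 269 to 323 lower. When only these 4 arrays were fitted, 4066 passed. At least 2-fold apart and past the test were 435 higher (4.19%) and 260 lower (2.5%) genes. The median difference of all 16593 genes on the array was -0.01.

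Before the results, the labels were set against markers that define each cell type. Insulin 2 (Ins2), glucagon (Gcg), somatostatin (Sst) and pancreatic polypeptide (Ppy) were above background on all 4 arrays, at 14.54 to 14.80 in adult islets and at 13.09 to 14.75 in day 4 progenitors. The embryonic stem cell arrays averaged 7.05 over the 6 islet hormones. Of 15 Y-linked genes on the array, 0 were above background on an adult array and 3 (Eif2s3y, Kdm5d and Uty) were above it on both day 4 arrays. Eif2s3y, a Y-linked translation factor subunit, was at 6.95 and 6.92 in adult islets, against 9.07 and 9.12 in day 4 progenitors. Sex and stage cannot be told apart in these 4 arrays.

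Genes known from 9 endocrine lists, such as hormones, islet transcription factors, granule and exocytosis genes, moved in both directions. Of 195 on the array, 25 were higher in adult islets (12.8%), 20 were lower (10.3%) and 53 stayed within 2-fold (27.2%). Of the 177 tested, 14.1% were higher and 11.3% lower, beside 7.53% and 6.93% of all genes tested. Of the genes of 10 lists of other cell types, nearly all that passed were higher. Of 255 on the array, 79 were higher (31.0%), 3 were lower (1.18%) and 12 stayed within 2-fold (4.71%). "Within 2-fold" means that the 95% confidence interval of the difference lay inside -1 to 1 with all 4 arrays above background, which held for 4896 (47.2%) of the genes tested. It held for 53 of the 177 endocrine genes tested and for 12 of the 198 of other cell types. Both classes thus stayed within 2-fold less often than all genes. The median difference was -0.05 over the endocrine genes and 0.28 over those of other cell types, beside -0.01 for all genes. A further 11 lists of cell states gave 73 higher and 52 lower of 362 genes. Where a list below is given with 0 genes on one side, that side held 0 to 1 genes at an unadjusted p under 0.05 too, except for the metabolism and pericyte lists, whose counts are given there.

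**Figure D1:**
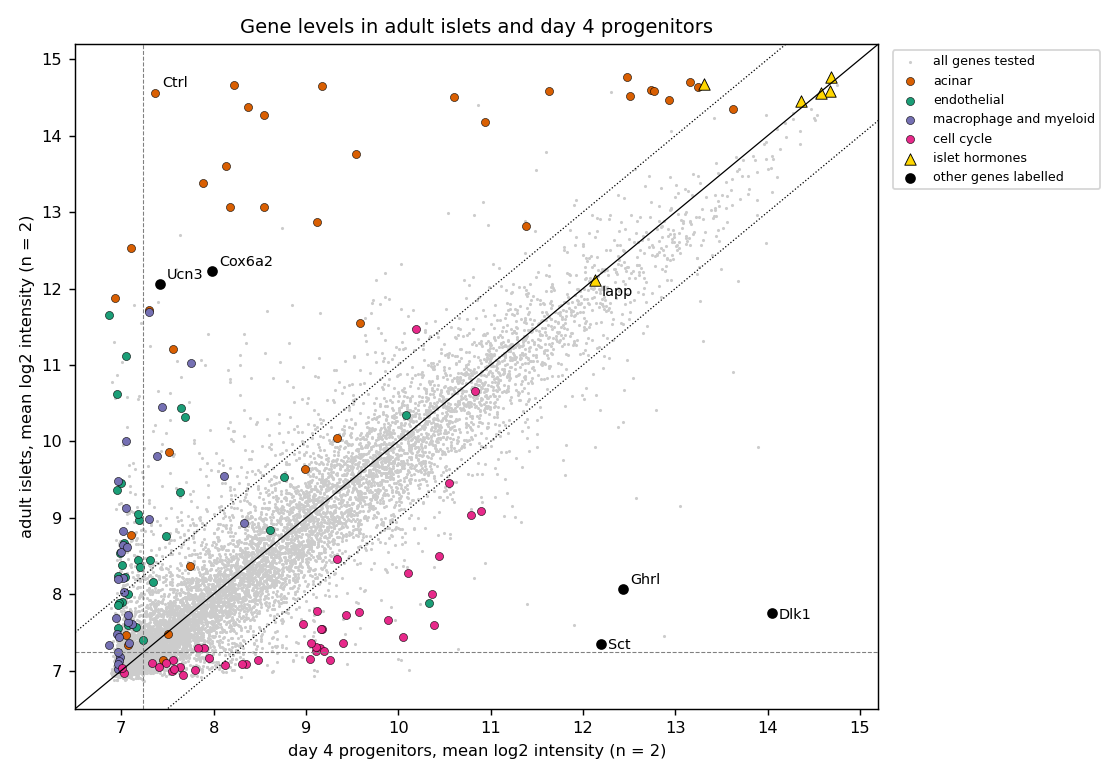
Mean log2 intensity in adult islets (vertical axis, n = 2) against day 4 progenitors (horizontal axis, n = 2) for each of 10382 genes; coloured points are members of 4 lists and triangles the islet hormones. The solid line marks equal levels, dotted lines 2-fold, and dashed lines the background level of 7.24. Most acinar, endothelial and myeloid genes lie above the diagonal, many at background on the day 4 axis, cell cycle genes lie mostly below it, and 5 of the 6 hormones lie on it.

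The transcripts of the main islet hormones were kept at day 4. Of 6 hormone genes on the array, 5 stayed within 2-fold and 1 was higher in adult islets. Ins2 was at 14.80 and 14.74 in adult islets, against 14.69 and 14.68 in day 4 progenitors. Glucagon, the alpha cell hormone, was at 14.57 and 14.59 in adult islets, against 14.61 and 14.75 in day 4 progenitors. Sst, the delta cell hormone, was at 14.57 and 14.54 in adult islets, against 14.58 and 14.58 in day 4 progenitors. These levels, and those of peptide YY (Pyy), lay within 0.5 log2 of the brightest probe on at least 1 array of each group, where a real difference can be hidden by the top of the scale. Islet amyloid polypeptide (Iapp), which is packed with insulin, lay well below that top and was at 12.15 and 12.07 in adult islets, against 12.18 and 12.08 in day 4 progenitors. Its difference was -0.01, with a 95% confidence interval of -0.91 to 0.88, so the interval spans nearly the whole 2-fold range. Ppy, made by the gamma cells of the islet, was at 14.67 and 14.67 in adult islets, against 13.53 and 13.09 in day 4 progenitors, and the groups did not overlap. It was the hormone that passed the test (log2 difference 1.36 ± 0.34 SE, adjusted p = 0.0217), but its adjusted p was 0.0565 to 0.174 with any 1 array left out.

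Gut-type hormones held the 2 largest falls of the endocrine lists, secretin and ghrelin, while several neuropeptides rose. Of 22 such genes on the array, 4 were higher and 6 lower in adult islets, with a median difference of -0.13; without day 4 replicate 1, 3 were lower. Secretin (Sct), a hormone of the duodenum, was at 7.43 and 7.27 in adult islets, against 12.09 and 12.30 in day 4 progenitors. Its level in adult islets was at the edge of background, a 28.7-fold fall (log2 difference -4.84 ± 0.41 SE, adjusted p = 1.97e-05). Ghrelin (Ghrl), made by the epsilon cells of fetal islets and by the stomach, was at 8.07 and 8.06 in adult islets, against 12.73 and 12.14 in day 4 progenitors, and was 20.6-fold lower (log2 difference -4.37 ± 0.23 SE, adjusted p = 7.14e-07). Gastrin (Gast), which stimulates gastric acid, was at 7.06 and 6.93 in adult islets, against 9.32 and 8.93 in day 4 progenitors. It was below background on both adult arrays, at least 3.70-fold lower (adjusted p = 0.00496), and missed the threshold without day 4 replicate 1 (adjusted p = 0.0546). Neuropeptide Y (Npy) was at 10.71 and 11.10 in adult islets, against 13.69 and 13.56 in day 4 progenitors and was 6.60-fold lower (log2 difference -2.72 ± 0.39 SE, adjusted p = 7.98e-04), so adult islets kept a clear signal. Cholecystokinin (Cck) was at 7.15 and 6.94 in adult islets, against 7.92 and 8.14 in day 4 progenitors, at least 1.73-fold lower, but its adjusted p was 0.105 to 0.215 with any 1 array left out.

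The neuropeptides that rose were at or near background at day 4. Vasoactive intestinal peptide (Vip), a transmitter of pancreatic nerves, was at 10.85 and 11.74 in adult islets, against 6.98 and 6.87 in day 4 progenitors, at least 16.7-fold higher (adjusted p = 3.88e-07). Tachykinin 1 (Tac1), the precursor of substance P, was at 9.23 and 9.24 in adult islets, against 7.19 and 7.41 in day 4 progenitors, 3.82-fold higher (log2 difference 1.93 ± 0.22 SE, adjusted p = 1.68e-04). Gastrin-releasing peptide (Grp) was at 8.37 and 8.24 in adult islets, against 7.02 and 6.97 in day 4 progenitors, at least 2.09-fold higher (adjusted p = 8.42e-06). All 3 are also made by neurons. Of 16 Schwann and neural genes on the array, 2 were higher in adult islets (1 or 2 with any 1 array left out): the microtubule regulator stathmin 2 (Stmn2), 8.23 and 8.51 in adult islets, against 7.002 and 7.05 in day 4 progenitors, and peripherin (Prph), at least 1.11-fold. Peripherin missed the threshold in 3 of the 4 fits with an array left out, with an adjusted p of up to 0.114. Their summed intensity over the 16 genes was 12.17 to 12.21 log2 units in adult islets and 11.83 to 11.95 in day 4 progenitors, and the defining Schwann marker S100b was below background on all 4 arrays. The part of neural cells in the neuropeptide values was not tested. Galanin (Gal), Cartpt and neuromedin B (Nmb) stayed within 2-fold, Gal at 9.88 and 9.79 in adult islets, against 10.01 and 9.93 in day 4 progenitors.

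Among 24 genes of beta cell maturity, 5 rose, 1 fell and 6 stayed within 2-fold, with a median difference of 0.18. Urocortin 3 (Ucn3), a peptide that marks mature beta cells in the mouse and stimulates somatostatin release, was at 12.24 and 11.87 in adult islets, against 7.46 and 7.38 in day 4 progenitors. Day 4 progenitors were thus at the edge of background, and adult islets 24.9-fold higher (log2 difference 4.64 ± 0.14 SE, adjusted p = 1.20e-08). Cox6a2, the muscle-type subunit 6A of cytochrome c oxidase, was at 12.19 and 12.26 in adult islets, against 7.89 and 8.08 in day 4 progenitors, 18.9-fold higher (log2 difference 4.24 ± 0.14 SE, adjusted p = 2.17e-08). Trpm5, a calcium-activated cation channel that aids glucose-driven insulin release, was at 10.28 and 9.99 in adult islets, against 7.42 and 7.27 in day 4 progenitors, 6.91-fold higher (log2 difference 2.79 ± 0.19 SE, adjusted p = 3.92e-06). Npas4, a transcription factor switched on by depolarization and calcium, was at 10.16 and 10.05 in adult islets, against 7.47 and 7.51 in day 4 progenitors, 6.13-fold higher (log2 difference 2.62 ± 0.25 SE, adjusted p = 4.71e-05). For these 4 genes every adult array lay above every day 4 array by more than 2 log2 units. Slc30a8, which loads zinc into insulin granules, was at 12.45 and 12.20 in adult islets, against 10.96 and 11.09 in day 4 progenitors, 2.45-fold higher (log2 difference 1.29 ± 0.27 SE, adjusted p = 0.00768). It missed the threshold without adult replicate 1 (adjusted p = 0.0666) or without day 4 replicate 1 (adjusted p = 0.0649).

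Neuronatin (Nnat), an imprinted gene that aids insulin processing in beta cells, was the maturity gene that fell. It was at 7.97 and 7.21 in adult islets, against 12.05 and 11.75 in day 4 progenitors, a 19.8-fold difference (log2 difference -4.31 ± 0.73 SE, adjusted p = 0.00241), and 1 of the adult arrays was below background. Other genes of glucose handling differed less. The glucose transporter Slc2a2 was at 11.35 and 11.36 in adult islets, against 10.49 and 10.77 in day 4 progenitors, and its difference of 0.73 ± 0.37 did not pass (adjusted p = 0.252). G6pc2, the islet glucose-6-phosphatase, was at 13.31 and 13.64 in adult islets, against 12.66 and 12.77 in day 4 progenitors (adjusted p = 0.394). Both differences had intervals that reach beyond 1, up to 1.55 for Slc2a2 and 1.86 for G6pc2, so a 2-fold rise is within their error. Bace2, a protease of the beta cell surface, and the taurine transporter Slc6a6 stayed within 2-fold, at differences of 0.54 ± 0.20 and -0.43 ± 0.21. Of 19 genes of mitochondrial and glucose metabolism, 0 passed in limma, and at an unadjusted p under 0.05, 4 were lower. Of the 18 tested, 9 stayed within 2-fold, near the 47.2% of all genes tested.

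**Figure D2:**
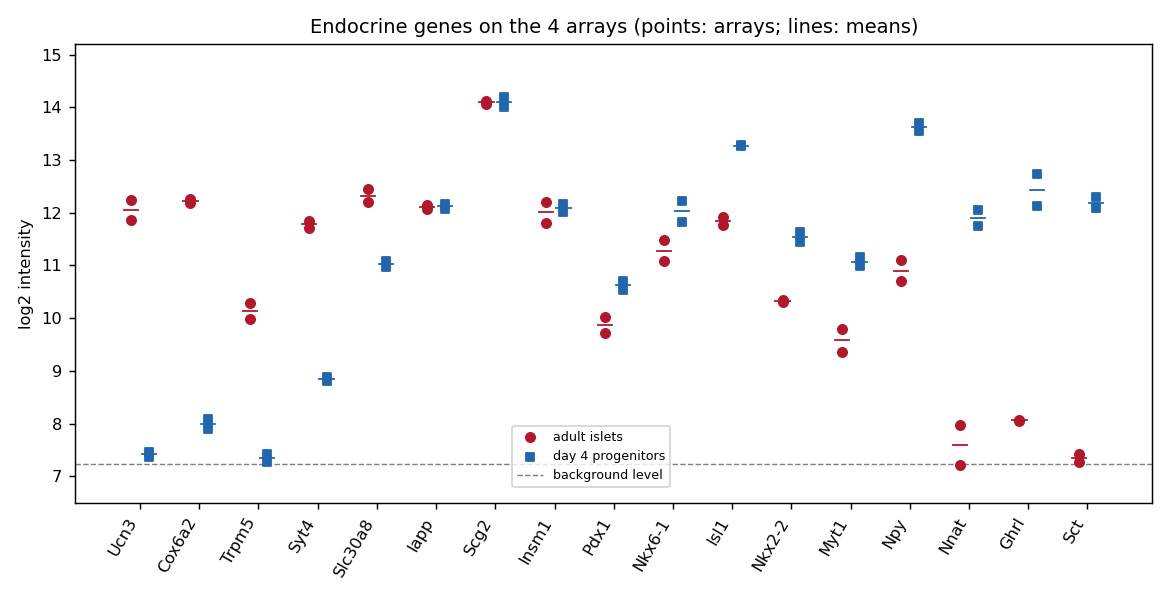
Log2 intensity of 17 endocrine genes on each of the 2 adult arrays (circles, left) and the 2 day 4 arrays (squares, right), with group means as short lines and the background level of 7.24 dashed. Ucn3, Cox6a2, Trpm5 and Syt4 are higher in adult islets, Iapp, Scg2 and Insm1 are at one level in both, and Sct and Nnat in adult islets are at the edge of background.

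Islet transcription factors that passed were all lower in adult islets. Of 33 on the array, 0 were higher in limma (1 at an unadjusted p under 0.05), 6 were lower and 6 stayed within 2-fold. The median difference was -0.23, and 3 to 4 were lower with any 1 array left out. Isl1, a LIM factor needed for all islet hormone cells, was at 11.92 and 11.76 in adult islets, against 13.26 and 13.28 in day 4 progenitors (log2 difference -1.43 ± 0.24 SE, adjusted p = 0.00204). Myt1, a zinc finger factor of endocrine differentiation, was at 9.80 and 9.35 in adult islets, against 10.99 and 11.16 in day 4 progenitors (log2 difference -1.50 ± 0.17 SE, adjusted p = 2.27e-04). Irx2, a homeobox factor found in alpha cells, was at 9.07 and 8.95 in adult islets, against 10.46 and 10.31 in day 4 progenitors (log2 difference -1.37 ± 0.26 SE, adjusted p = 0.00501). The 3 genes were 2.59- to 2.82-fold lower, and each kept a signal well above background in adult islets. Nkx2-2, a repressor that sets beta cell fate, was at 10.34 and 10.31 in adult islets, against 11.45 and 11.64 in day 4 progenitors, but its adjusted p was 0.0766 to 0.133 with any 1 array left out. The other 2, named after their values were seen, were Hhex, which maintains delta cells, at a difference of -1.17 ± 0.28 (adjusted p = 0.0165), and Rfx6, a factor of endocrine differentiation, at -0.96 ± 0.21 (adjusted p = 0.0102). Each missed the threshold in 3 of the 4 fits with an array left out, with an adjusted p of up to 0.161 for Hhex and 0.107 for Rfx6.

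The beta cell factors Pdx1, Nkx6-1, Neurod1 and Mafa did not pass. Pdx1 was at 10.02 and 9.72 in adult islets, against 10.54 and 10.71 in day 4 progenitors (adjusted p = 0.08). Nkx6-1 was at 11.48 and 11.08 in adult islets, against 11.83 and 12.23 in day 4 progenitors (adjusted p = 0.143). In both the 2 adult arrays lay below the 2 day 4 arrays, and the intervals reached -1.33 and -1.42, beyond a 2-fold fall. Neurod1 was at 8.18 and 8.25 in adult islets, against 8.69 and 8.67 in day 4 progenitors (adjusted p = 0.641). The probe of Mafa, a beta cell factor of postnatal maturity, was near background throughout, at 7.41 and 7.23 in adult islets, against 7.44 and 7.66 in day 4 progenitors. The probe of Pax6 was below background on all 4 arrays. Such values cannot show whether these 2 genes were absent or alike in the groups, since a probe may fail to report its gene. Among the factors within 2-fold were Insm1, a zinc finger factor of endocrine cells, at 12.21 and 11.81 in adult islets, against 12.01 and 12.17 in day 4 progenitors, and Foxa3, a forkhead factor, at 10.59 and 10.59 in adult islets, against 10.60 and 10.86 in day 4 progenitors. Of 19 endocrine progenitor genes, 0 were higher (1 at an unadjusted p under 0.05) and 2 were lower (0 to 1 with any 1 array left out): Cck, above, and Hes6, a Notch pathway factor, at 8.63 and 8.62 in adult islets, against 9.503 and 9.66 in day 4 progenitors. Hes6 missed the threshold without adult replicate 1, adult replicate 2 or day 4 replicate 2 (adjusted p up to 0.094 in these fits) and when its probes were averaged (adjusted p = 0.291). Neurog3 was at 8.27 and 7.64 in adult islets, against 8.97 and 8.55 in day 4 progenitors and did not pass (adjusted p = 0.462).

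In the secretory granule list, which also holds genes of other cells such as Erp27, those that passed were all higher in adult islets. Of 22 granule genes on the array, 5 were higher in adult islets, 0 were lower and 7 stayed within 2-fold; with any 1 array left out, 1 to 4 were higher. Scg2 was at 14.06 and 14.13 in adult islets, against 14.01 and 14.19 in day 4 progenitors. Scg3 was at 13.07 and 13.33 in adult islets, against 13.27 and 13.40 in day 4 progenitors. Both are granins, acidic proteins that help form dense core granules, and together with the calcium binder secretagogin (Scgn, -0.01 ± 0.27) they differed by at most 0.13. Chromogranin A (Chga), the abundant granin, was at 14.11 and 14.02 in adult islets, against 12.95 and 12.96 in day 4 progenitors (log2 difference 1.11 ± 0.31 SE, adjusted p = 0.0342), but its adjusted p was 0.129 to 0.159 with any 1 array left out. Chgb was at 12.60 and 13.32 in adult islets, against 12.45 and 12.59 in day 4 progenitors and did not pass (adjusted p = 0.436). Pcsk1n, which encodes proSAAS, an inhibitor of prohormone convertase 1, was at 11.39 and 11.45 in adult islets, against 9.86 and 9.77 in day 4 progenitors, 3.04-fold higher (log2 difference 1.60 ± 0.23 SE, adjusted p = 9.71e-04). The probe of the convertase itself, Pcsk1, was below background on all 4 arrays. Erp27, a disulfide isomerase family member of the pancreas that is also in the acinar list, was at 10.27 and 9.45 in adult islets, against 7.52 and 7.51 in day 4 progenitors; it missed the threshold in 3 of the 4 fits with an array left out, with an adjusted p of up to 0.107.

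Of 31 genes of the exocytosis list, 6 were higher (among them the glucose transporter Slc2a3), 3 were lower and 8 stayed within 2-fold, with a median difference of 0.00. Without adult replicate 1, 3 were higher, and without day 4 replicate 2, 2 were. Synaptotagmin 4 (Syt4), a vesicle protein that tunes the calcium dependence of insulin release in maturing beta cells, was at 11.85 and 11.72 in adult islets, against 8.89 and 8.81 in day 4 progenitors, 7.63-fold higher (log2 difference 2.93 ± 0.16 SE, adjusted p = 7.14e-07). Complexin 1 (Cplx1), which clamps the fusion machinery, was at 8.47 and 8.85 in adult islets, against 7.16 and 7.27 in day 4 progenitors, 2.72-fold higher (log2 difference 1.44 ± 0.14 SE, adjusted p = 6.95e-05). The glucose transporter Slc2a3, known from neurons, was at 8.77 and 8.80 in adult islets, against 7.43 and 7.25 in day 4 progenitors, and missed the threshold without day 4 replicate 2 (adjusted p = 0.051). In the other direction, the plasma membrane SNARE Stx1a was at 9.497 and 9.24 in adult islets, against 10.55 and 10.48 in day 4 progenitors (log2 difference -1.15 ± 0.14 SE, adjusted p = 3.46e-04). Syt13, a synaptotagmin of endocrine precursors in the mouse, was at 9.18 and 9.21 in adult islets, against 10.27 and 10.27 in day 4 progenitors (log2 difference -1.08 ± 0.18 SE, adjusted p = 0.00198). Rab27a and Rab3d, GTPases of granule docking, stayed within 2-fold, at differences of -0.15 ± 0.31 and 0.02 ± 0.21.

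Of 32 genes of ion channels and stimulus coupling, 6 were higher (3 without day 4 replicate 2), 3 lower and 10 within 2-fold. Besides Trpm5, Gpr158, an orphan receptor, was at 10.75 and 10.88 in adult islets, against 8.07 and 8.30 in day 4 progenitors, 6.20-fold higher (log2 difference 2.63 ± 0.16 SE, adjusted p = 1.48e-06). Cacna1h, a T-type calcium channel, was at 8.40 and 8.31 in adult islets, against 10.42 and 10.35 in day 4 progenitors, 4.08-fold lower (log2 difference -2.03 ± 0.23 SE, adjusted p = 2.19e-04). Itpr3, an inositol trisphosphate receptor of the endoplasmic reticulum, was at 8.85 and 8.46 in adult islets, against 9.71 and 9.59 in day 4 progenitors (log2 difference -0.99 ± 0.17 SE, adjusted p = 0.00247). Abcc8, the sulfonylurea receptor subunit of the channel that couples glucose to depolarization, was at 11.16 and 11.02 in adult islets, against 12.27 and 12.29 in day 4 progenitors, but its adjusted p was 0.0817 to 0.126 with any 1 array left out. The voltage-gated potassium channel Kcnh2 (-0.01 ± 0.26) and the G protein subunit Gng4 (-0.03 ± 0.25) stayed within 2-fold. The probe of the incretin receptor Glp1r was near background on all 4 arrays, at 7.24 and 7.29 in adult islets, against 6.99 and 6.97 in day 4 progenitors.

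Over all members on the array, acinar genes had the highest median difference of the 30 lists. The 6 MHC class II genes tested had a higher one (3.77), but the median of all 11 on the array was 0.36. Of these 11, 10 were below background on both day 4 arrays, so which of them were tested depended largely on the other arrays. Of 37 acinar genes on the array, 21 were higher, 0 were lower and 1 stayed within 2-fold, with a median of 2.34. Both adult arrays lay above both day 4 arrays for 35 of 37; among all genes tested, the arrays of the groups did not overlap, in either direction, for 7365 (70.9%). Summed over the 37 genes, intensity was 18.72 to 18.99 log2 units in adult islets and 16.18 to 16.46 in day 4 progenitors. Chymotrypsin-like protease (Ctrl) was at 14.63 and 14.49 in adult islets, against 7.44 and 7.29 in day 4 progenitors, 147-fold higher (log2 difference 7.20 ± 0.18 SE, adjusted p = 2.83e-09). The elastase Cela1 was at 14.65 and 14.68 in adult islets, against 8.39 and 8.06 in day 4 progenitors, 86.9-fold higher (log2 difference 6.44 ± 0.71 SE, adjusted p = 1.49e-04). Zymogen granule protein 16 (Zg16) was at 14.59 and 14.16 in adult islets, against 8.65 and 8.09 in day 4 progenitors (log2 difference 6.002 ± 0.64 SE, adjusted p = 1.16e-04). The lipase Cel was at 14.61 and 13.92 in adult islets, against 8.67 and 8.42 in day 4 progenitors (log2 difference 5.72 ± 0.72 SE, adjusted p = 3.77e-04). On both adult arrays 12 of the 37 genes were within 0.5 of the brightest probe, so these folds can be too small. Day 4 progenitors were not at background for this list: of the defining markers, carboxypeptidase A1 (Cpa1) was at 14.37 and 13.98 in adult islets and 11.07 and 10.80 in day 4 progenitors, amylase (Amy2a5) at 14.77 and 14.75 in adult islets and 12.64 and 12.33 in day 4 progenitors, chymotrypsinogen (Ctrb1) at 14.75 and 14.44 in adult islets and 12.91 and 12.58 in day 4 progenitors and trypsin 2 (Prss2) at 13.53 and 13.22 in adult islets and 7.99 and 7.77 in day 4 progenitors. Cpa1 and Prss2 passed in limma, while Amy2a5 (adjusted p = 0.35) and Ctrb1 (adjusted p = 0.103) did not. At day 4 the list was thus uneven, with Amy2a5 and Ctrb1 at 12.33 or above and Ctrl and Cela1 at 8.39 or below. Reg2, a secreted protein of the regenerating family made in acinar and stressed islet cells, was at 12.17 and 11.58 in adult islets, against 6.996 and 6.88 in day 4 progenitors, at least 24.9-fold higher (adjusted p = 2.17e-08). Pnliprp2, a pancreatic lipase-related enzyme, was at 12.99 and 12.08 in adult islets, against 7.21 and 7.01 in day 4 progenitors, at least 39.2-fold higher (adjusted p = 9.22e-06).

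The tissue kallikrein Klk1, a serine protease, was at 13.23 and 12.90 in adult islets, against 8.44 and 7.90 in day 4 progenitors, 29.7-fold higher (log2 difference 4.89 ± 0.33 SE, adjusted p = 3.55e-06). Klk1b27 and Klk1b5, its close copies in the mouse and in none of the lists, had differences of 5.06 ± 0.18 (adjusted p = 4.09e-08) and 4.67 ± 0.32 (adjusted p = 3.92e-06). Probes of this family may bind each other's transcripts, so 1 transcript may account for more than 1 of these values. The trypsin family has the same limit.

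Ductal genes did not move as a group: of 26 on the array, 5 were higher (2 to 4 with any 1 array left out), 2 lower and 2 within 2-fold, with a median of -0.02. Trefoil factor 2 (Tff2), a mucosal peptide, was at 13.08 and 12.50 in adult islets, against 8.93 and 8.55 in day 4 progenitors, 16.5-fold higher (log2 difference 4.05 ± 0.30 SE, adjusted p = 6.69e-06). Keratin 8 (Krt8), a filament of simple epithelia, was at 13.59 and 13.97 in adult islets, against 11.63 and 11.56 in day 4 progenitors (log2 difference 2.18 ± 0.34 SE, adjusted p = 0.00161). Wfdc2, a secreted epithelial protease inhibitor, was at 7.21 and 7.36 in adult islets, against 10.95 and 10.35 in day 4 progenitors, 10.3-fold lower (log2 difference -3.36 ± 0.47 SE, adjusted p = 7.55e-04). Ambp, the precursor of alpha-1-microglobulin, was at 10.45 and 10.38 in adult islets, against 12.68 and 12.90 in day 4 progenitors (log2 difference -2.38 ± 0.24 SE, adjusted p = 9.02e-05). Of the defining markers, keratin 19 (Krt19) was at 7.48 and 7.27 in adult islets and 8.40 and 7.80 in day 4 progenitors and Cftr was below background on all 4 arrays, so neither was higher on the adult arrays.

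Endothelial genes were mostly at background in day 4 progenitors and higher in adult islets. Of 38 on the array, 25 were higher in adult islets and 1 was lower, with a median difference of 1.03; with any 1 array left out, 17 to 20 were higher. On both day 4 arrays 24 of the 38 were below background. Their summed intensity was 14.39 log2 units on both adult arrays and 12.93 to 13.01 on the day 4 arrays. Esm1, a secreted endothelial proteoglycan, was at 11.65 and 11.66 in adult islets, against 6.88 and 6.86 in day 4 progenitors, at least 21.4-fold higher (adjusted p = 2.63e-07). Plvap, which forms the diaphragms of fenestrated capillaries, was at 11.16 and 11.09 in adult islets, against 7.02 and 7.09 in day 4 progenitors, at least 14.8-fold (adjusted p = 2.43e-04). Endomucin (Emcn), a surface protein of capillaries, was at 10.59 and 10.65 in adult islets, against 6.96 and 6.95 in day 4 progenitors, at least 10.4-fold (adjusted p = 3.60e-06). In these 3 the adult arrays differed by at most 0.07 from each other. Esam, a junction protein, was at 10.59 and 10.28 in adult islets, against 7.65 and 7.64 in day 4 progenitors (log2 difference 2.79 ± 0.46 SE, adjusted p = 0.00192). Of the other defining markers, Pecam1 was at 8.58 and 8.51 in adult islets and 6.97 and 7.01 in day 4 progenitors and Cdh5 at 7.56 and 7.56 in adult islets and 6.92 and 7.02 in day 4 progenitors, while the probe of Kdr was below background on all 4 arrays. The exception was Lyve1, a hyaluronan receptor of lymphatic vessels and some macrophages, at 7.92 and 7.86 in adult islets, against 10.33 and 10.33 in day 4 progenitors, 5.43-fold lower (log2 difference -2.44 ± 0.40 SE, adjusted p = 0.00204). Pericyte and mesenchyme genes did not follow: of 15 pericyte and smooth muscle genes 0 passed in limma (3 at an unadjusted p under 0.05: 2 higher, 1 lower), and of 32 mesenchyme genes 2 were higher and 0 lower, with 0 to 1 higher when an array was left out. Decorin (Dcn) was at 10.21 and 11.19 in adult islets and 10.72 and 9.70 in day 4 progenitors and Col1a1 at 7.25 and 6.97 in adult islets and 8.17 and 7.73 in day 4 progenitors, so Dcn was above background on all 4 arrays and Col1a1 on 1 of the 2 adult arrays and both day 4 arrays.

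**Figure D3:**
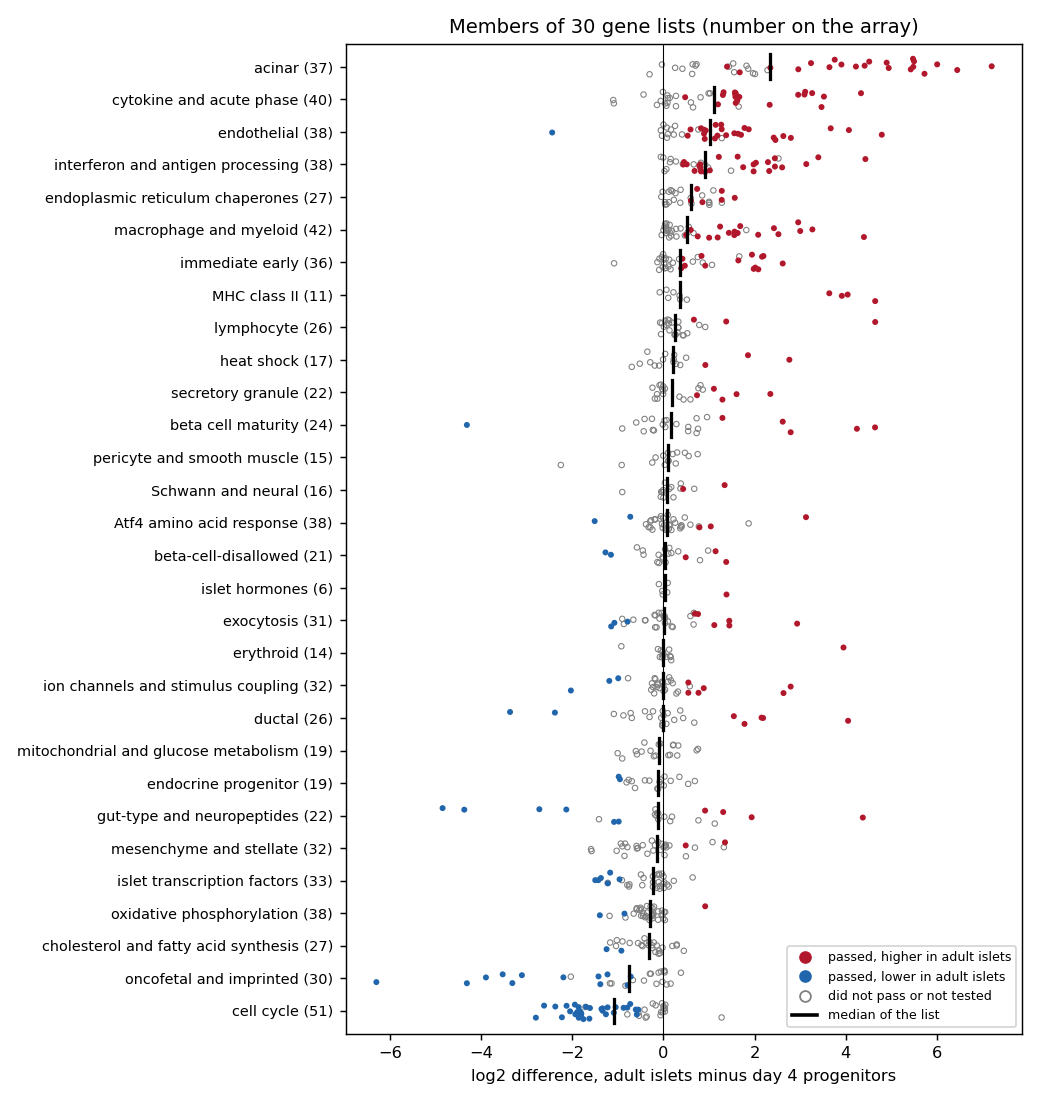
Log2 difference, adult islets minus day 4 progenitors, of every member on the array of the 30 gene lists (points), with the list median as a black bar; red and blue points passed in limma, open points did not pass or were not tested. Acinar genes have the highest median (2.34) and cell cycle genes the lowest (-1.09), and the endocrine lists straddle 0.

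Many genes of antigen-presenting and myeloid cells were higher in adult islets. Of 42 macrophage and myeloid genes, 18 were higher and 0 lower, with a median difference of 0.51, and 35 were below background on both day 4 arrays. Their summed intensity was 13.68 to 14.69 log2 units in adult islets and 12.54 to 12.55 in day 4 progenitors. The count was 9 to 19 with any 1 array left out: 10 without adult replicate 2, and 11 or 9 without the first or the other day 4 array. Of 11 MHC class II genes, 4 were higher, and 4 were with any 1 array left out. These were Cd74, the invariant chain, and the chains H2-Ab1, H2-Eb1 and H2-Aa. Cd74 was at 11.38 and 12.19 in adult islets, against 7.10 and 7.18 in day 4 progenitors, at least 23.4-fold higher (adjusted p = 8.08e-07). H2-Ab1 was at 10.66 and 11.43 in adult islets, against 7.03 and 6.98 in day 4 progenitors, at least 14.0-fold (adjusted p = 9.37e-07). In both, adult replicate 2 was the higher adult array, by 0.81 for Cd74 and 0.78 for H2-Ab1. The same array was higher for 27 of the 30 myeloid genes tested and for all 6 class II genes tested. Over all genes tested, the median of adult replicate 2 minus adult replicate 1 was -0.01. Galectin 3 (Lgals3), abundant in macrophages, was at 10.42 and 11.62 in adult islets, against 7.90 and 7.61 in day 4 progenitors (log2 difference 3.27 ± 0.34 SE, adjusted p = 9.02e-05). Laptm5, a lysosomal protein of blood cells, was at 9.78 and 11.11 in adult islets, against 7.47 and 7.42 in day 4 progenitors (log2 difference 2.999 ± 0.44 SE, adjusted p = 0.00104). The complement gene C1qb was at 8.83 and 9.43 in adult islets and 6.99 and 7.11 in day 4 progenitors and its partner C1qa at 8.81 and 9.06 in adult islets and 8.36 and 8.31 in day 4 progenitors, above background on all 4 arrays. The difference of C1qa was 0.60 ± 0.14 (adjusted p = 0.016), and its adjusted p was 0.0274 to 0.143 with any 1 array left out. The probe of the pan-leukocyte marker Ptprc was below background on all 4 arrays.

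Lymphocyte and red cell genes differed less. Of 26 lymphocyte genes, 3 were higher (2 to 8 with any 1 array left out, 8 without adult replicate 1). They included Cd74, which B cells share with other antigen-presenting cells, and Cd79a of the B cell receptor, at 7.80 and 7.69 in adult islets, against 7.05 and 7.11 in day 4 progenitors. The T cell marker Cd3e was at 7.29 and 7.43 in adult islets and 7.06 and 7.05 in day 4 progenitors, at the edge of background. Of 14 erythroid genes 1 was higher, alpha globin (Hba-a1), at 11.80 and 10.71 in adult islets, against 7.45 and 7.17 in day 4 progenitors; its adjusted p was 0.0613 to 0.149 with any 1 array left out. Hba-a1 has a near-identical copy that the probe may also detect.

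Cytokine and interferon genes had the highest medians of the cell-state lists. Of 40 cytokine and acute phase genes, 20 were higher and 0 lower, with a median difference of 1.11 (12 to 17 with any 1 array left out). The chemokine Cxcl1, which draws neutrophils, was at 10.59 and 12.51 in adult islets, against 7.25 and 7.19 in day 4 progenitors (log2 difference 4.33 ± 0.53 SE, adjusted p = 3.03e-04). Cxcl10, a chemokine induced by interferon, was at 10.26 and 10.90 in adult islets, against 7.01 and 7.11 in day 4 progenitors, at least 10.1-fold higher (adjusted p = 1.73e-06). Socs3, a brake on cytokine receptors, was at 11.44 and 11.37 in adult islets, against 8.07 and 7.81 in day 4 progenitors (log2 difference 3.47 ± 0.23 SE, adjusted p = 2.77e-06). Cish, another brake of that family and a Stat5 target, was at 10.45 and 10.87 in adult islets, against 7.41 and 7.39 in day 4 progenitors (log2 difference 3.26 ± 0.26 SE, adjusted p = 1.15e-05). Ccl4, a chemokine in none of the lists, was at 10.62 and 10.94 in adult islets, against 6.86 and 6.93 in day 4 progenitors, at least 11.7-fold higher (adjusted p = 4.55e-04). For Cxcl1 the adult arrays lay 1.92 apart, the widest gap of these 5.

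Of 38 interferon and antigen processing genes, 24 were higher and 0 lower, with a median difference of 0.91 (16 to 22 with any 1 array left out). Ifit3, an interferon-induced antiviral protein, was at 11.81 and 11.84 in adult islets, against 7.42 and 7.36 in day 4 progenitors, 21.5-fold higher (log2 difference 4.43 ± 0.44 SE, adjusted p = 7.36e-05). Oasl2, a protein like the oligoadenylate synthetases, was at 10.56 and 10.62 in adult islets, against 7.08 and 7.30 in day 4 progenitors (log2 difference 3.40 ± 0.57 SE, adjusted p = 0.00232). The guanylate-binding protein Gbp2 was at 10.03 and 10.35 in adult islets, against 7.11 and 7.001 in day 4 progenitors, at least 7.73-fold higher (adjusted p = 1.26e-06). The ubiquitin-like protein Isg15 was at 9.20 and 10.17 in adult islets, against 7.003 and 7.17 in day 4 progenitors, at least 5.46-fold (adjusted p = 2.41e-04). Of the 33 genes tested, 31 were higher in adult replicate 2 than in adult replicate 1. The tilt was not particular to immune lists: of 44 cell cycle genes tested 35 were higher in adult replicate 2, and of 37 acinar genes 6 were. Myeloid and class II genes were higher on that array too, and their part in these values was not tested.

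Many interferon-induced genes carry an interferon-stimulated response element (ISRE) before their start site. Its core, searched on both strands as a pair of GAAA steps with 2 bases of any kind between them, was present in 13 of 31 list genes with a RefSeq promoter (41.9%; a window of 300 bases that ends just after the start, GRCm38.p6). It was present in 3.99% of 27025 genes with such a promoter. These shares describe the genes of the list, whether or not they differed between adult islets and day 4. Within the list it was present in 7 of 20 genes that passed and in 6 of 11 that did not pass or were not tested. The promoters of Ifit3 (chr19:34583279-34583578, plus strand) and Isg15 (chr4:156200769-156201068, minus strand) are shown because these genes rose and hold the core more than once; capitals mark each match, and the 3 matches of Isg15 overlap.
Ifit3: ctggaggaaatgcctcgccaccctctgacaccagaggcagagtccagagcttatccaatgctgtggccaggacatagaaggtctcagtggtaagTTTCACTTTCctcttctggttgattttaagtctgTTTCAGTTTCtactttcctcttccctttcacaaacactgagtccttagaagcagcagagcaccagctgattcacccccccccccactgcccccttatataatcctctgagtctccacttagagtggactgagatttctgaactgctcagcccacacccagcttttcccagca
Isg15: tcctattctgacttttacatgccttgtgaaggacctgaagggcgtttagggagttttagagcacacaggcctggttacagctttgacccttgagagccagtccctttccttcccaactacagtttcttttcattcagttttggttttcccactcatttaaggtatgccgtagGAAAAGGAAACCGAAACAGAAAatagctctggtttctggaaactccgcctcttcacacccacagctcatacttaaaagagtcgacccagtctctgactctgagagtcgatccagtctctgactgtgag
The 2 matches of Ifit3 are on the strand opposite to the one printed, and the 3 of Isg15 on the one printed.

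Of 36 immediate early genes, which cells switch on within minutes of a stimulus or of handling, 13 were higher and 0 lower (5 to 8 with any 1 array left out). Junb was at 10.46 and 10.37 in adult islets, against 8.40 and 8.26 in day 4 progenitors (log2 difference 2.08 ± 0.36 SE, adjusted p = 0.00287). Fos was at 10.75 and 9.56 in adult islets, against 8.16 and 7.76 in day 4 progenitors, 4.57-fold higher (log2 difference 2.19 ± 0.43 SE, adjusted p = 0.0059), and missed the threshold without adult replicate 1 (adjusted p = 0.0612) or day 4 replicate 2 (adjusted p = 0.0622). Of 17 heat shock genes, 3 were higher (1 without day 4 replicate 1) and 6 stayed within 2-fold. The small chaperone Hspb1 was at 10.71 and 10.72 in adult islets, against 8.98 and 8.75 in day 4 progenitors (log2 difference 1.85 ± 0.28 SE, adjusted p = 0.00122). Hspa1a, the inducible Hsp70, was at 11.002 and 9.57 in adult islets, against 7.54 and 7.504 in day 4 progenitors, with adult replicate 1 higher by 1.44; its adjusted p was up to 0.0791 with an array left out.

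Of 27 chaperones of the endoplasmic reticulum, which fold secreted proteins, 6 were higher and 0 lower, with a median difference of 0.60 (3 to 4 higher with any 1 array left out). Sel1l, a part of the complex that removes misfolded proteins, was at 11.19 and 10.90 in adult islets, against 9.86 and 9.66 in day 4 progenitors (log2 difference 1.28 ± 0.18 SE, adjusted p = 6.62e-04). Derl3, of the same pathway, was at 9.34 and 8.57 in adult islets, against 7.39 and 7.39 in day 4 progenitors (log2 difference 1.56 ± 0.22 SE, adjusted p = 8.34e-04). The list of acinar genes moved with them, and the part of acinar cells, which are rich in these chaperones, was not tested. Of 38 genes of the Atf4 amino acid response, 3 were higher, 2 lower (1 with any 1 array left out) and 16 within 2-fold. Of the 35 members tested, 8.57% were higher and 5.71% lower, near the 7.53% and 6.93% of all genes tested. The share within 2-fold, 16 of 35, was near the 47.2% of all genes tested. Ddit3 (Chop), a stress transcription factor, was at 11.84 and 11.57 in adult islets, against 8.498 and 8.67 in day 4 progenitors, 8.73-fold higher (log2 difference 3.13 ± 0.31 SE, adjusted p = 6.95e-05). Trib3, its target, was at 8.22 and 8.18 in adult islets, against 7.43 and 7.39 in day 4 progenitors (log2 difference 0.79 ± 0.14 SE, adjusted p = 0.00263). The arginine transporter Slc7a3 was lower, at 8.03 and 8.12 in adult islets, against 9.61 and 9.56 in day 4 progenitors (log2 difference -1.51 ± 0.20 SE, adjusted p = 6.02e-04).

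Of 38 oxidative phosphorylation genes, 20 stayed within 2-fold, 1 was higher (0 to 1 with any 1 array left out) and 2 were lower (1 to 2), with a median of -0.30; over all genes tested 47.2% stayed within 2-fold. Of the 36 members tested, 2.78% were higher and 5.56% lower, below the 7.53% and 6.93% of all genes tested. Atp5b, the catalytic beta subunit of ATP synthase, was at 12.34 and 12.84 in adult islets, against 14.03 and 13.95 in day 4 progenitors (log2 difference -1.40 ± 0.24 SE, adjusted p = 0.00279). Of 27 cholesterol and fatty acid synthesis genes, 12 stayed within 2-fold and 2 were lower (1 to 2 with any 1 array left out). The share that was lower, 7.41%, was near the 6.93% of all genes tested. The share within 2-fold, 12 of 27, was near the 47.2% of all genes tested. Fads1, a fatty acid desaturase, was at 11.07 and 11.19 in adult islets, against 12.05 and 12.06 in day 4 progenitors (log2 difference -0.92 ± 0.15 SE, adjusted p = 0.00196). Of 21 genes known to be shut off in beta cells, 3 were higher (0 to 2 with any 1 array left out), 2 were lower (1) and 2 stayed within 2-fold. Oat, ornithine aminotransferase, was lower at 9.41 and 9.53 in adult islets, against 10.67 and 10.58 in day 4 progenitors (log2 difference -1.15 ± 0.22 SE, adjusted p = 0.00463), and the hexokinase Hk3 of blood cells was higher, at 7.43 and 7.61 in adult islets, against 7.01 and 7.05 in day 4 progenitors, a rise that missed the threshold in 3 of 4 fits with an array left out (adjusted p up to 0.0931).

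Cell cycle genes had the lowest median of the 30 lists. Of 51 on the array, 32 were lower, 0 were higher in limma (1 at an unadjusted p under 0.05) and 0 stayed within 2-fold, with a median difference of -1.09; 17 to 21 were lower with any 1 array left out. Mcm5, a subunit of the replicative helicase, was at 7.41 and 7.78 in adult islets, against 10.37 and 10.41 in day 4 progenitors, 6.95-fold lower (log2 difference -2.80 ± 0.39 SE, adjusted p = 7.46e-04). Uhrf1, which copies DNA methylation at replication, was at 7.26 and 7.62 in adult islets, against 10.01 and 10.10 in day 4 progenitors (log2 difference -2.62 ± 0.48 SE, adjusted p = 0.00382). Pbk, a mitotic kinase, was at 7.45 and 8.54 in adult islets, against 10.35 and 10.38 in day 4 progenitors (log2 difference -2.37 ± 0.41 SE, adjusted p = 0.00271). Cdca3, a trigger of mitotic entry, was at 7.36 and 7.96 in adult islets, against 9.95 and 9.82 in day 4 progenitors (log2 difference -2.23 ± 0.34 SE, adjusted p = 0.00131). Top2a, the topoisomerase that untangles chromosomes, was at 7.07 and 7.43 in adult islets, against 9.03 and 9.19 in day 4 progenitors (log2 difference -1.86 ± 0.28 SE, adjusted p = 0.00117). In each the adult values were 7.07 to 8.54, at or little above background, and the day 4 values 9.03 to 10.41. On both adult arrays 23 of the 51 genes were below background, against 9 on both day 4 arrays.

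Many genes of the G2 and M phases carry a pair of promoter elements, the CCAAT box and the cell cycle genes homology region (CHR). The CHR was searched as TTTGAA, and both elements were read on either strand. A CCAAT box was present in 31 of 42 list genes with a promoter (73.8%) and in 41.1% of all 27025. A CHR was present in 21 of 42 (50%) and in 20.2% of all. Both were present in 20 of 42 (47.6%) and in 7.97% of all. As with the ISRE, these shares describe the list, whether or not its genes differed between the groups. Of 29 list genes that passed 14 held a CHR, and of 13 that did not pass or were not tested 7 did. The promoters of Top2a (chr11:99024140-99024439, minus strand) and Plk1 (chr7:122159185-122159484, plus strand), a kinase of mitosis chosen after its difference of -1.86 ± 0.35 (adjusted p = 0.00431) was seen, are shown because both hold the pair, with CCAAT boxes and CHR in capitals.
Top2a: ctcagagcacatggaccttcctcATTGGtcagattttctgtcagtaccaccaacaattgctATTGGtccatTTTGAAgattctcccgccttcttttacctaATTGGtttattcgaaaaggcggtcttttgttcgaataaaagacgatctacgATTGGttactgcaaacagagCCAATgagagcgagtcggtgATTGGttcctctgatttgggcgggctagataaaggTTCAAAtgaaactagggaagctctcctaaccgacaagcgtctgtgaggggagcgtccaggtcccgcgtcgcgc
Plk1: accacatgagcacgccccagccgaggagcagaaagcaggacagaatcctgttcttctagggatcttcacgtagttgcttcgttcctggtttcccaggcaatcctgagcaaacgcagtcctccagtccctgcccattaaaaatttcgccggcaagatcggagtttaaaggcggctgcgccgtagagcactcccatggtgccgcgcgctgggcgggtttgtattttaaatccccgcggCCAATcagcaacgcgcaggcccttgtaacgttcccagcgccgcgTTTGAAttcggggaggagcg
Top2a holds 6 CCAAT boxes and 2 CHR matches, and Plk1 holds 1 of each.

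Several oncofetal and imprinted genes were lower in adult islets as well. Of 30 on the array, 12 were lower, 0 were higher and 4 stayed within 2-fold, with a median of -0.75; 9 were lower with any 1 array left out. Dlk1, an imprinted membrane protein of fetal tissues, showed the largest fall of all named genes. It was at 7.71 and 7.80 in adult islets, against 13.97 and 14.12 in day 4 progenitors, 78.5-fold lower (log2 difference -6.30 ± 0.24 SE, adjusted p = 4.24e-08). Insulin-like growth factor 2 (Igf2), a fetal growth factor, was at 9.31 and 9.01 in adult islets, against 13.39 and 12.72 in day 4 progenitors (log2 difference -3.89 ± 0.70 SE, adjusted p = 0.00357). Nrep, a protein of growing neurons, was at 9.53 and 8.98 in adult islets, against 12.52 and 12.61 in day 4 progenitors (log2 difference -3.31 ± 0.18 SE, adjusted p = 7.57e-07). Igf2bp3, a fetal RNA-binding protein, was at 7.06 and 6.97 in adult islets, against 10.05 and 10.18 in day 4 progenitors, at least 7.36-fold lower (adjusted p = 2.31e-05). The cell cycle inhibitor Cdkn1c was at 7.96 and 7.77 in adult islets, against 11.81 and 10.98 in day 4 progenitors, with the day 4 arrays 0.83 apart, and its adjusted p was 0.0559 to 0.126 with any 1 array left out.

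Several of the largest differences were in genes of no list. Claudin 11 (Cldn11), a tight junction protein, was at 7.47 and 7.43 in adult islets, against 12.90 and 12.86 in day 4 progenitors, 43.1-fold lower (log2 difference -5.43 ± 0.20 SE, adjusted p = 4.24e-08). The amino acid transporter Slc38a5 was at 10.24 and 9.62 in adult islets, against 13.81 and 13.99 in day 4 progenitors, 15.7-fold lower (log2 difference -3.97 ± 0.30 SE, adjusted p = 7.67e-06). Skeletal alpha actin (Acta1) was at 8.29 and 8.14 in adult islets, against 10.61 and 11.03 in day 4 progenitors (log2 difference -2.61 ± 0.24 SE, adjusted p = 3.69e-05). The secreted synapse protein Nptx2 was at 8.55 and 8.27 in adult islets, against 11.11 and 10.77 in day 4 progenitors (log2 difference -2.53 ± 0.25 SE, adjusted p = 6.95e-05), and the ATP receptor P2ry1 at 9.24 and 8.66 in adult islets, against 11.24 and 11.41 in day 4 progenitors (log2 difference -2.38 ± 0.42 SE, adjusted p = 0.00319). On the other side, Apobec1, a cytidine deaminase, was at 10.50 and 10.62 in adult islets, against 7.18 and 7.19 in day 4 progenitors, at least 9.98-fold higher (adjusted p = 7.14e-07). The phosphatase Dusp26 was at 10.98 and 10.71 in adult islets, against 7.57 and 7.72 in day 4 progenitors (log2 difference 3.20 ± 0.23 SE, adjusted p = 4.47e-06), and Parp14, an interferon-induced ADP-ribosyltransferase, at 11.04 and 11.09 in adult islets, against 7.75 and 7.98 in day 4 progenitors (log2 difference 3.20 ± 0.17 SE, adjusted p = 7.14e-07).

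Genes that passed and were above background in 1 group only numbered 210 (2.02%) for adult islets and 92 (0.886%) for day 4 progenitors; with any 1 array left out they numbered 138 to 200 and 42 to 67. Of the 210, 41 were among the 198 tested genes of other cell types. These held 18 of the 32 endothelial and 11 of the 30 myeloid genes tested. The endocrine lists held 3 among 177 tested, a share near the 2.02% of all genes. They were Vip, Grp and Tph2, the neuronal tryptophan hydroxylase, at least 1.801-fold. Tph2 missed the threshold in 3 of 4 fits with an array left out (adjusted p up to 0.0992). Of the 92, 9 were among 44 cell cycle genes tested and 3 among 27 oncofetal or imprinted genes tested. Another 2, Gast and Cck, were among 19 gut-type hormones and neuropeptides tested. Beside these stands the 0.886% of all genes tested.

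The earlier stages placed the day 4 level for single genes. The median of Syt4 was 7.42 at day 0 and 7.85 at day 1, then 8.85 at day 4, against 11.78 in adult islets. Ucn3 had medians of 7.29, 7.11 and 7.42 at days 0, 1 and 4, all at the edge of background, against 12.06 in adult islets. Ghrl had medians of 14.20, 13.87 and 12.43 at days 0, 1 and 4 and 8.06 in adult islets, so it was lower at day 4 than at day 0 on every array. Npy and Nnat instead were highest at day 4, with medians of 13.63 and 11.90, against 10.90 and 7.59 in adult islets. Dlk1 had medians of 12.38, 13.29 and 14.05 at days 0, 1 and 4. Hspa1a and Fos, higher in adult islets than at day 4, were higher still at day 0, with medians of 12.16 and 12.08. Hba-a1 had a median of 14.19 at day 0 and 7.31 at day 4.

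**Figure D4:**
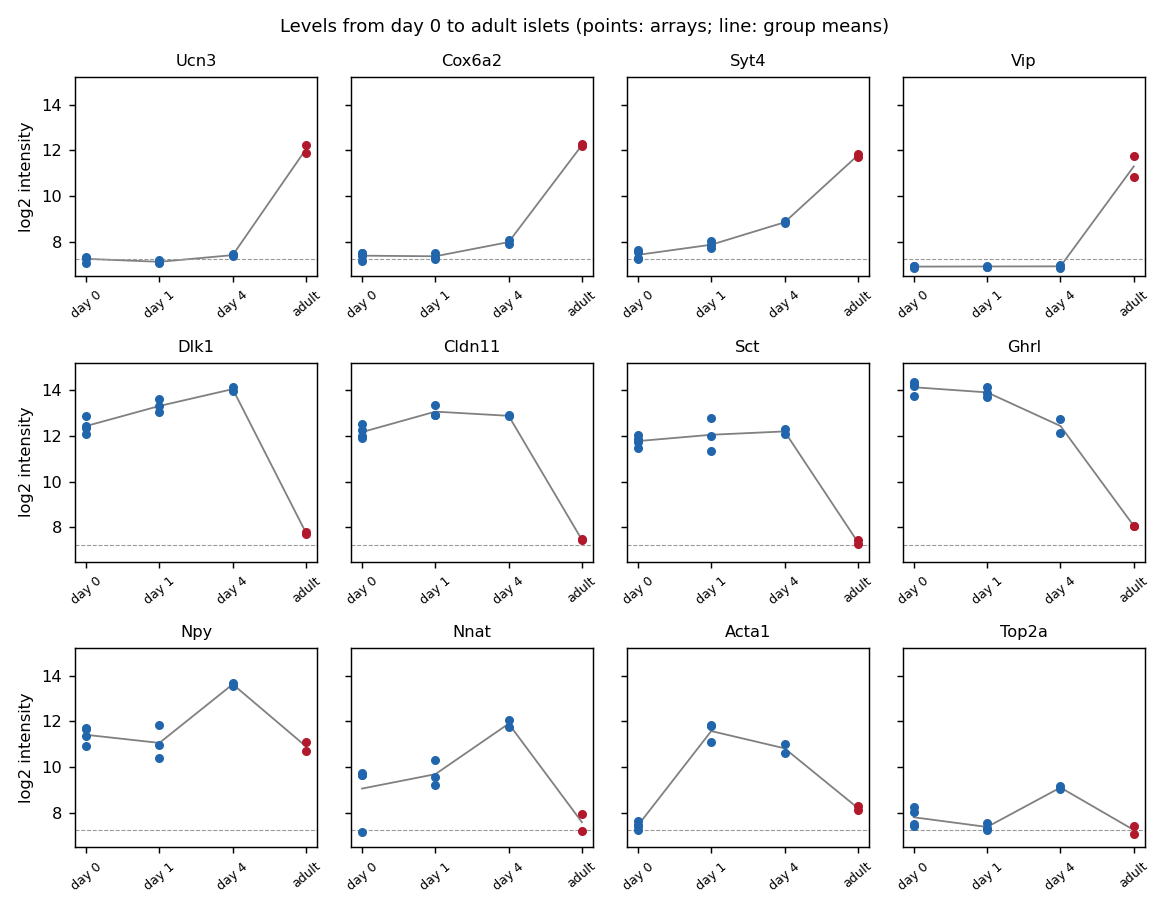
Log2 intensity of 12 genes on progenitor arrays of day 0 (n = 4), day 1 (n = 3) and day 4 (n = 2) and on adult islet arrays (n = 2); points are arrays, lines join group means, and the dashed line is the background level of 7.24. Ucn3, Cox6a2, Syt4 and Vip are highest in adult islets, Sct and Cldn11 are above 11 on all progenitor arrays, and Npy, Nnat and Top2a are highest at day 4.

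Over all genes that passed, 766 of the 782 that were higher in adult islets had their highest stage mean there (98.0%), and 14 had it at day 0. Of the 719 that were lower, 332 (46.2%) had their highest mean at day 4, 205 (28.5%) at day 0 and 182 at day 1. The adult and day 4 arrays enter both these counts and the test that chose the genes, so the counts are a description.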

How the data were processed

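Total RNA of 13 samples was extracted with Trizol, amplified to biotin-labelled cRNA and measured on Illumina bead arrays, per the labels' protocols. The log2 values used are those the authors deposited. Their quartiles are nearly equal on all arrays, so they had been normalized, by a tool and method not given in the sources used here; base 2 was inferred from their range, 6.73 to 15.20. A table of signals before normalization was not used, because 26 of its columns match no sample label.

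The 25697 probes were looked up in the platform annotation: 23978 had 1 gene, 0 several and 1719 none. Probes above the background level of 7.24 (mode 6.98 plus 5 SD of 0.052) on at least 2 arrays were kept, and each gene was tested through its brightest one. A model of 5 group means over 13 arrays was fitted with limma 3.58.1 in R 4.3.3 (8 residual and 2.94 prior degrees of freedom), with Benjamini-Hochberg adjustment over the 10382 genes. For a gene below background on both arrays of one group, the background level takes that group's place, and the fold is written as at least that size.

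The genes in the comparison, the 30 lists (926 genes, 799 on the array, 684 tested) and the tests were chosen with earlier results of these data known. Most genes named were drawn from a set picked by rule. It held fixed islet genes, the 12 largest rises and falls, and the 4 largest of each list in each direction. It also held the 8 largest in no list and, per endocrine list, the 4 brightest within 2-fold. Markers that define each cell type were named besides. Not every gene of the set is named: the acinar genes Cela3b (log2 difference 5.48) and Rnase1 (5.47) and the myeloid gene Lyz1 (4.40) are among those left out. List counts run over all members on the array. On simulated data, 67% of 2-fold and 95% of 4-fold changes were recovered, and 6.90% of calls were unchanged genes. The simulation gave each gene the same normal spread in all groups and changed far fewer genes than passed here. These rates hold for that setting and may differ in the data. Alternatives were other filters, scalings, background treatments, probe choices, sets of arrays, a replicate block and each array left out.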

Additional observations from a re-analysis of the deposited data

Results flagged for a closer look

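Neuronatin (Nnat), 19.8-fold lower in adult islets than in day 4 progenitors, had 1 array far from the others among the 4 arrays of day 0. That array read 7.17 log2 units, below the background level, while the other day 0 arrays read 9.67 to 9.74. The gap to the nearest array was 0.973 of the range of the group. Day 0 is not part of the comparison of adult islets with day 4, and it enters only through the shared estimate of spread. Of the 24 genes whose day 0 levels were examined this was 1 flag, and chance flags about 1 group in 20.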

How the results depend on the processing

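Of the 112 genes named in the text that passed, 0 turned direction under an alternative or with an array left out, and 90 kept their call in every alternative and under every left-out array. With any 1 array left out, 675 to 859 genes passed, with 406 to 536 higher and 269 to 323 lower in adult islets; genes on one side only numbered 138 to 200 for adult islets and 42 to 67 for day 4. When the 4 arrays alone were fitted, 4066 passed (1714 higher, 2352 lower) and 256 were on the day 4 side only. A background level at 10 SD put 173 genes on that side, and a limit of 1.5-fold in place of 2-fold left 1828 genes within it. Under cyclic loess 63.7% of calls were higher in adult islets, beside 52.1% as reported. With the replicate number as a block (replicate block), 1313 genes passed, 664 higher and 649 lower; the labels give no pairing, and deviations of same-numbered arrays correlated at r = -0.04 over genes, so they share only a number. A block for slide or scan date was not run, since the files used give neither. In the 4 fits with an array left out, the lone array is assumed to vary like the other groups. Probes near the top of the scale (8 genes on all 4 arrays, 24 on both adult arrays) limit what can be seen of a rise. Of 389 genes that passed and had several probes, 29 had a probe of opposite sign.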
